A study of Mus musculus with 22 samples.

Results

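Genes that act between vasopressin and urine concentration were followed around the clock in the kidneys of mice without Clock. The list has 9 genes: the vasopressin receptors Avpr1a and Avpr2, the urea transporters Slc14a1 and Slc14a2, the osmotic transcription factor Nfat5, the aldose reductase gene Akr1b3, and the osmolyte transporters Slc5a3, Slc6a12 and Slc6a6. They were chosen by name, with earlier results of these data known. Each was represented by its brightest probe set with a single gene symbol. A probe set was found for 8 of the 9, each had 1 such probe set, and all 8 passed the filter on dim probe sets, among 15589 genes tested. Akr1b3 was not analysed here, because the probe annotation used does not list it.

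Vasopressin acts in the kidney through the V2 receptor, which raises cAMP in collecting duct cells so that water channels and the urea transporters of the inner medulla let water and urea pass. The V1a receptor, encoded by Avpr1a, signals through phospholipase C and calcium, and in the kidney it has been described in intercalated cells and in vessels. Cells of the salty inner medulla are protected by Nfat5, which switches on genes for the import of inositol, betaine and taurine and for the synthesis of sorbitol.

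RNA was taken from kidneys of Clock-deficient mice, labelled clock(-/-) and written KO here, and of wild-type mice, written WT. The labels call the source the whole kidney and the tissue the left kidney, and name no tissue-specific driver of the deletion. The colony descended from heterozygous breeding pairs, and both genotypes were kept for 2 weeks in cycles of 12 h light and 12 h dark, then for 30 hours in constant darkness. Kidneys were collected at 6 circadian times, every 4 h, given as zeitgeber time (ZT), with ZT0 the earlier lights-on and ZT12 the earlier lights-off. Age, sex and strain background were not stated in the labels used here.

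Each of the 22 Affymetrix arrays held RNA pooled from 2 or 3 mice, with 11 arrays of KO and 11 of WT kidneys. There were 2 pools per genotype and time, except for 1 pool of KO kidneys at ZT16 and 1 of WT kidneys at ZT8. Array medians lay between 5.88 and 6.01 log2, and the tubule marker Umod averaged 13.00 in KO and 13.09 in WT kidneys. That Umod difference was -0.09 ± 0.03 (SE), with an adjusted p of 0.0475 by limma, so Umod is no unchanged reference. Over the 1231 genes whose mean differed between genotypes, each array was placed by its mean deviation in the KO direction. These positions ran from -0.02 to 0.28 log2 in KO arrays and from -0.29 to 0.04 in WT arrays. The genes were picked by genotype on these same arrays, so a separation of KO from WT arrays follows from the choice. The second pools of KO at ZT8 (0.05), KO at ZT12 (-0.02) and WT at ZT4 (0.04) lay between the genotypes, and both KO pools at ZT20 lay highest (0.28 and 0.26). Where leaving out these arrays changed a call, the value is given for some genes and not for all. The probe set for Clock itself averaged 8.96 in KO and 8.83 in WT kidneys. It is no check of the genotype, because where it lies relative to the deleted exons was not stated.

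A 24 h wave with its own mean was fitted to each genotype with limma, and the values below are log2 expression. Amplitude is the distance from that mean to the fitted peak. A gene is called where its p-value, adjusted by the Benjamini-Hochberg method over all 15589 genes, is under 0.05. Averaged over the cycle, 3 of the 8 measured genes were higher in KO kidneys (Avpr1a, Avpr2 and Slc14a2) and 0 were lower, while among all genes 4.45% were called higher and 3.45% lower. The fitted difference was positive in all 8, and its median was 0.18, against -0.00379 over all genes tested. Because the list was chosen with earlier results of these data known, its comparisons with all genes are a description. A rhythm was called for 1 of the 8 in KO kidneys (Slc14a2), where 1.89% of all genes were called, and for 2 of the 8 in WT kidneys (Avpr1a and Slc14a2), where 5.16% were called. In whole-organ RNA, fewer cells of a type and less RNA per cell cannot be told apart.

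**Figure D1:**
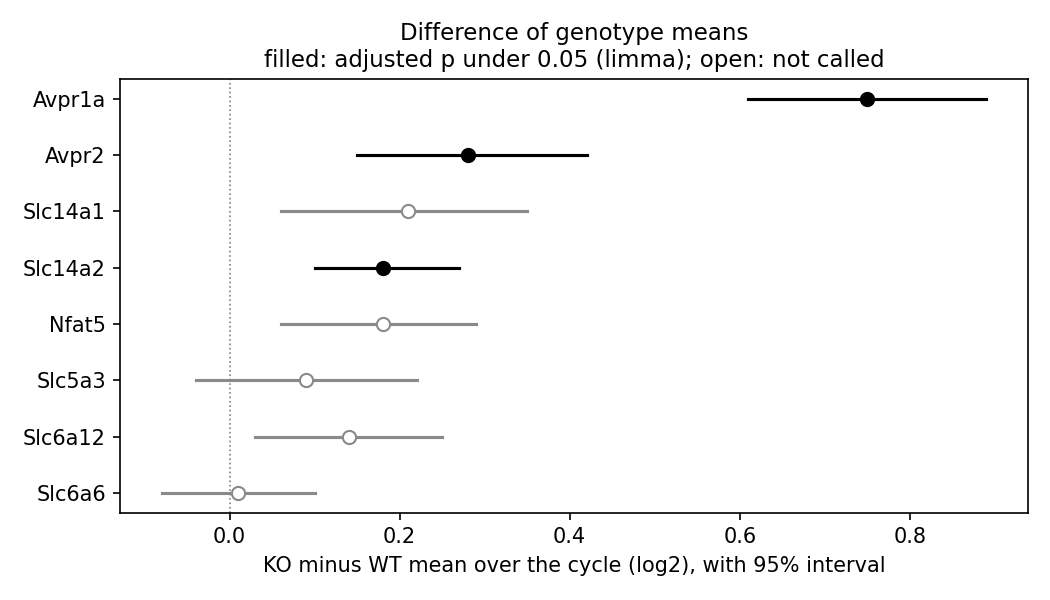
Difference of the fitted means over the cycle, KO minus WT in log2, with 95% intervals for the 8 measured genes; filled points are called by limma and open points are not. Avpr1a stands farthest to the right at 0.75, and the intervals of Slc5a3 and Slc6a6 include 0.

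Avpr1a, the gene of the V1a receptor, was higher in KO kidneys over the cycle, with KO pools above WT pools at every time. Its fitted amplitude was 0.27 in KO and 0.72 in WT kidneys, a difference between waves that missed the threshold. In KO kidneys its values in the pools were 9.18 and 9.12 at ZT0, 8.97 and 8.96 at ZT4, then 9.0 and 8.52 at ZT8, 8.80 and 8.58 at ZT12, next 9.15 at ZT16, and finally 9.26 and 9.18 at ZT20. In WT kidneys they were 8.76 and 8.98 at ZT0, 8.25 and 8.61 at ZT4, then 7.92 at ZT8, 7.52 and 7.24 at ZT12, next 8.04 and 8.20 at ZT16, and finally 8.65 and 8.81 at ZT20. At all 6 times every KO pool lay above every WT pool, which was so for 0.674% of all genes. Across times the genotypes did overlap, with 6 KO arrays above the highest WT array and 6 WT arrays below the lowest KO array. The shares of all genes with these counts across times were not taken. The WT series was low around ZT12 and high at ZT20 and ZT0, whereas the KO pools stayed at or above 8.52 throughout.

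**Figure D2:**
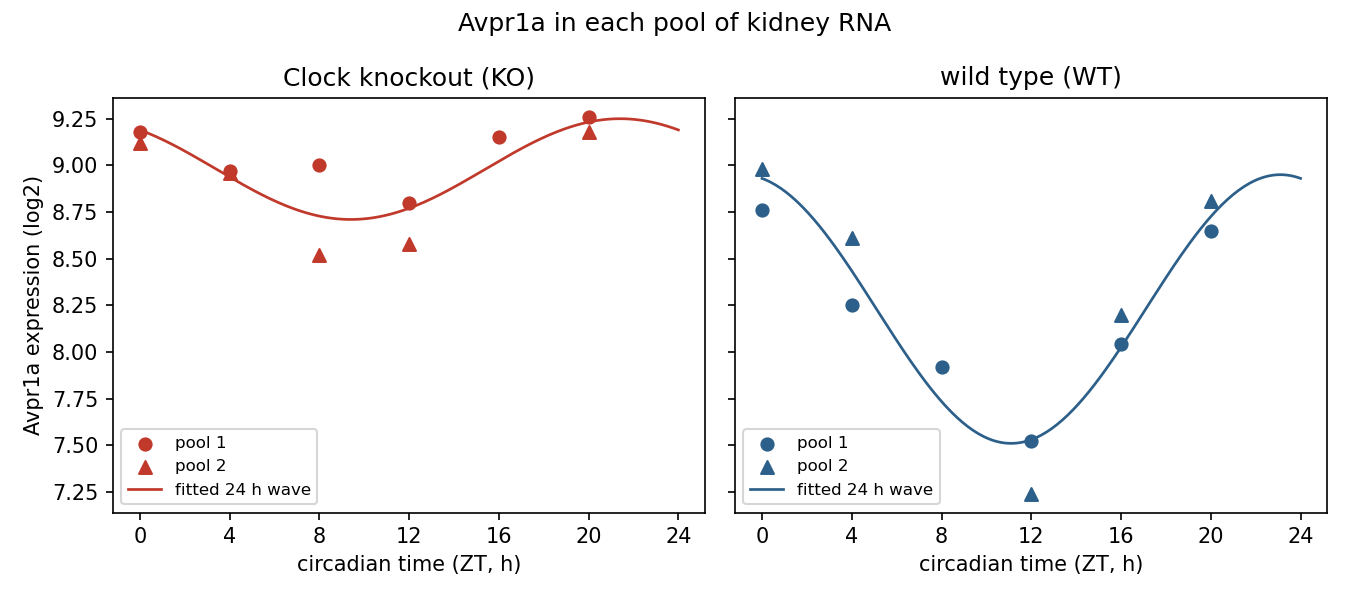
Avpr1a expression (log2) in each pool against circadian time, KO left and WT right, with circles for pool 1, triangles for pool 2 and a line for the fitted 24 h wave. The WT pools drop to 7.52 and 7.24 at ZT12, while the lowest KO pool is 8.52 at ZT8.

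The means over the 11 arrays were 8.98 ± 0.25 in KO and 8.27 ± 0.56 in WT kidneys (SD, n = 11 each, times included). The fitted difference was 0.75 ± 0.07 (SE, 95% interval 0.61 to 0.89), a fold of 1.68 with an interval of 1.53 to 1.85. Its adjusted p was 8.04e-07 by limma, and the p-value ranked 5 among the 15589 genes. The spread between pools was smaller, with a median gap between the pools of a group of 0.19 and a largest gap of 0.48, in KO at ZT8. The direction held in all 22 fits that left out 1 array, with differences between 0.71 and 0.78, and all 22 were called.

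The KO wave of Avpr1a had an amplitude of 0.27 ± 0.06 (SE) with a fitted peak at ZT21.4 (SE 1.0 h), and its adjusted p of 0.0652 by limma missed the threshold (unadjusted p = 0.00162). The WT wave had an amplitude of 0.72 ± 0.07 with a peak at ZT23.1 (SE 0.35 h), an adjusted p of 5.28e-06 and rank 8 among all genes. From fitted trough to fitted peak this was a fold of 1.45 in KO and of 2.71 in WT kidneys. The time means spanned 0.53 log2 in KO and 1.49 in WT kidneys. The KO peak time minus the WT peak time was -1.66 h with an SE of 1.1 h, and peak times alone were not tested.

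The difference between the Avpr1a waves, taken as the length of the vector between them, was 0.49 ± 0.09 (SE). Its unadjusted p was 0.000131 and ranked 12, but its adjusted p of 0.157 by limma missed the threshold. None of the other 7 genes was called either, so the count was 0 of 8, where 0.0385% of all genes were called. At an unadjusted p under 0.05 the count was 1 of 8, Avpr1a, where 7.32% of all genes passed. A limma F-test with a free level at each time also asked whether the Avpr1a genotype difference varied with time. There Avpr1a had an unadjusted p of 0.00402 and an adjusted p of 0.807, and Slc5a3 had an unadjusted p of 0.00384. Without the 3 second pools that lay between the genotypes, a setting chosen after seeing the data, the Avpr1a wave difference was 0.57 with an adjusted p of 0.0177, and the KO amplitude was 0.17. Those arrays were picked by their place between the genotypes over genes that include Avpr1a, and they hold its 2 lowest KO pools, so this value lends no support to a difference between the waves. The KO rhythm of Avpr1a was called in 2 of the 22 fits without 1 array, with adjusted p-values of 0.0281 without pool 1 of KO at ZT8 and 0.0424 without pool 2 of WT at ZT12.

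Time by time, Avpr1a was called higher in KO kidneys at ZT12, where the means were 8.69 in KO and 7.38 in WT kidneys. This difference was 1.31 ± 0.16 (SE), a fold of 2.48 with an adjusted p of 0.00303 by limma on group means, and 0.0898% of all genes were called higher at that time. Without pool 2 of WT at ZT12 it was 1.17 with an adjusted p of 0.105, and without pool 1 of KO at ZT12 it was 1.20 with an adjusted p of 0.141. At the other times the difference was 0.28 at ZT0, 0.53 at ZT4, then 0.84 at ZT8, 1.03 at ZT16 and 0.49 at ZT20, and none was called. Their adjusted p-values lay between 0.109, at ZT16, and 1, where 0.0192% of all genes were called higher at ZT0, 0.00641% at ZT4, 0.0128% at ZT8, 0.00641% at ZT16 and 0.52% at ZT20. Over the 8 genes and 6 times, this ZT12 difference of Avpr1a was the 1 call.

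**Figure D3:**
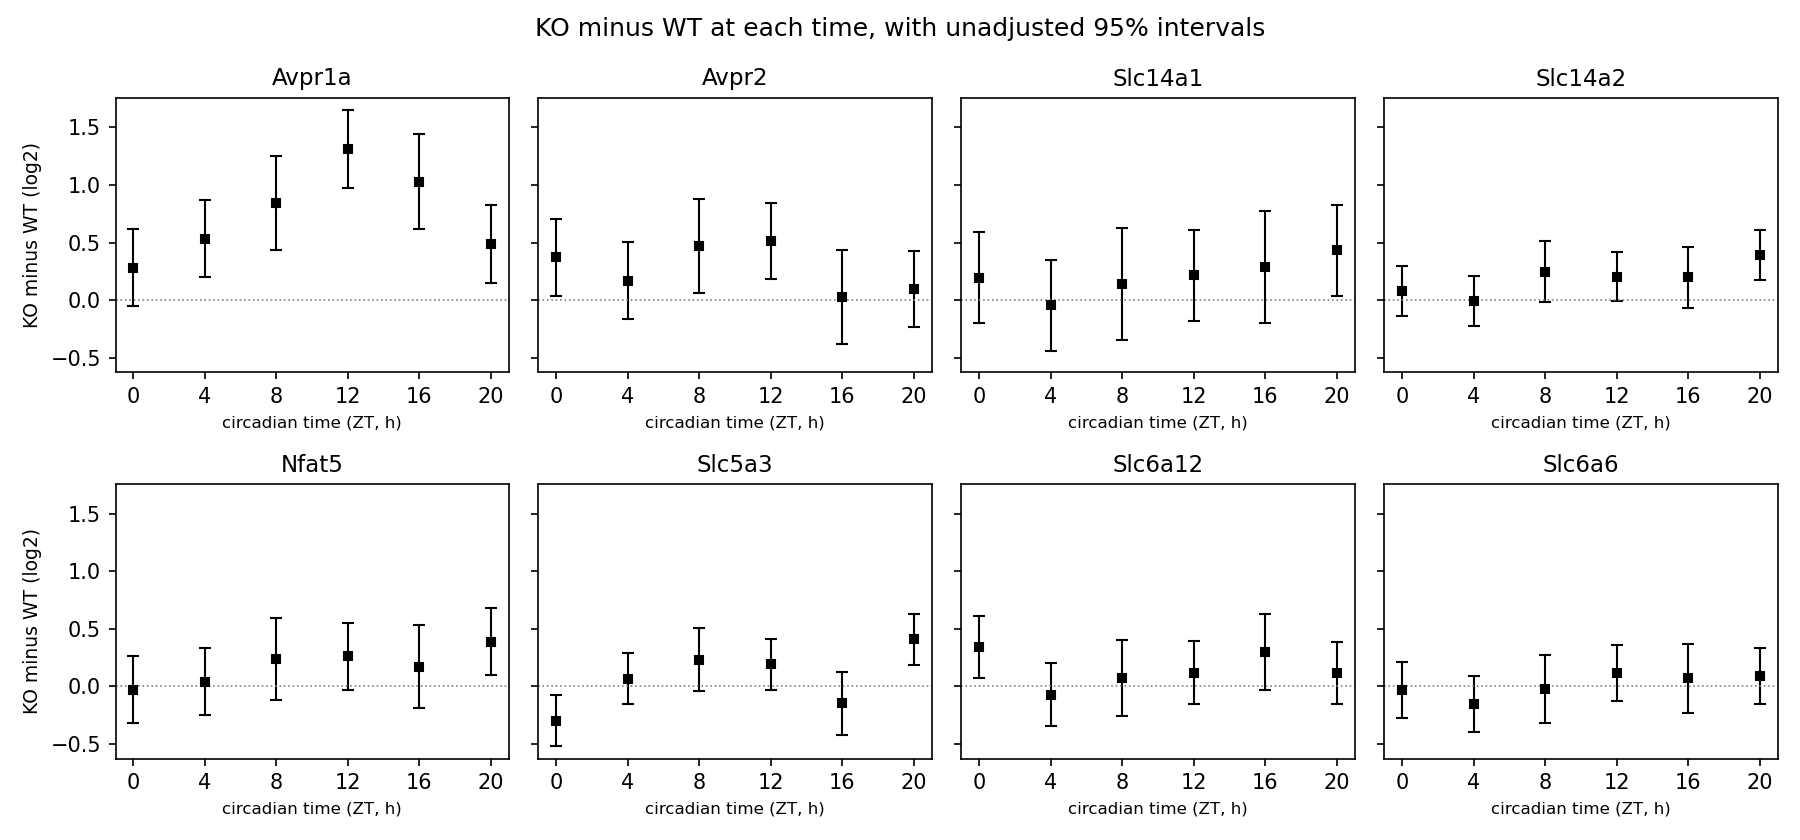
KO minus WT difference (log2) at each circadian time for the 8 measured genes, with unadjusted 95% intervals from the limma fit of group means. The Avpr1a difference climbs to 1.31 at ZT12, and that of Slc5a3 is -0.30 at ZT0 and 0.41 at ZT20.

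The sequence around the start of Avpr1a is shown because Clock and its partner bind E-boxes, whose core is CANNTG and whose canonical form is CACGTG. The window comes from RefSeq on GRCm38.p6, runs from 250 bases before to 50 bases after the gene start, and lies on the plus strand at chr10:122448249-122448548. Capitals mark each CANNTG.
Avpr1a: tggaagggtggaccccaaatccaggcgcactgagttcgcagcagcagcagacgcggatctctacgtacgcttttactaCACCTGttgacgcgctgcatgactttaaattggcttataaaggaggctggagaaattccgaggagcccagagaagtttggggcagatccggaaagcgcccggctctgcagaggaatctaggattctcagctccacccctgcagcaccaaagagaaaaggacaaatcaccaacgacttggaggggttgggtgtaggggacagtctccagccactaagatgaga
Avpr1a had 1 CANNTG, at -172 from the start. Among 32851 promoter windows of 300 bases, 72.3% hold a CANNTG on either strand and 7.15% hold CACGTG. The canonical form was in none of the RefSeq windows of the 5 listed genes with an entry (Avpr1a, Avpr2, Nfat5, Slc5a3 and Slc6a12), some of which lie around a start site inside the gene. A match or its absence describes these letters in this window only.

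Avpr2, the gene of the V2 receptor that drives water and urea reabsorption, was also higher in KO kidneys, by a smaller amount and with no called rhythm. In KO kidneys the pools read 8.48 and 8.60 at ZT0, 8.21 and 8.31 at ZT4, then 8.55 and 8.24 at ZT8, 8.59 and 8.28 at ZT12, next 8.34 at ZT16, and finally 8.46 and 8.41 at ZT20. In WT kidneys they read 8.12 and 8.22 at ZT0, 7.91 and 8.27 at ZT4, then 7.92 at ZT8, 8.11 and 7.73 at ZT12, next 8.46 and 8.17 at ZT16, and finally 8.36 and 8.32 at ZT20. The KO pools lay above the WT pools at 4 of the 6 times and overlapped with them at ZT4 and ZT16. The lowest WT pool was the second at ZT12, and 4 of the 11 KO pools lay above the highest WT pool, at ZT16. The shares of all genes with such counts were not taken, so the counts lend no weight to the difference.

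The fitted Avpr2 difference was 0.28 ± 0.06 (SE, 95% interval 0.15 to 0.42), a fold of 1.22 with an adjusted p of 0.00861 by limma. It stayed called in all 22 fits without 1 array. Without the pools of both genotypes at ZT0, ZT12 or ZT20, chosen after seeing the data for ZT0 and ZT12, it was 0.22, 0.22 and 0.30, with adjusted p-values of 0.104, 0.101 and 0.0814. The fitted amplitude was 0.05 ± 0.06 in KO (adjusted p = 0.939) and 0.22 ± 0.07 in WT kidneys, where the fitted peak was at ZT20.1 (unadjusted p = 0.0139, adjusted p = 0.125). The wave difference had an adjusted p of 0.79, so a smaller rhythm in KO was not shown for Avpr2. In RefSeq the gene overlaps Arhgap4, and where the probes lie relative to that overlap was not known here.

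The urea transporter genes Slc14a2 and Slc14a1 are neighbours in the genome, and of these Slc14a2 was called. Slc14a2 encodes the UT-A transporters of the inner medullary collecting duct and thin limb. Its KO pools read 7.83 and 7.76 at ZT0, 7.64 and 7.52 at ZT4, then 7.51 and 7.47 at ZT8, 7.55 and 7.56 at ZT12, next 7.78 at ZT16, and finally 8.07 and 8.11 at ZT20. Its WT pools read 7.78 and 7.66 at ZT0, 7.42 and 7.75 at ZT4, then 7.24 at ZT8, 7.32 and 7.38 at ZT12, next 7.62 and 7.54 at ZT16, and finally 7.75 and 7.64 at ZT20. Both genotypes were low at ZT8 and ZT12 and higher at ZT20 and ZT0, and the KO pools at ZT20 were above all others. KO pools lay above WT pools at 4 of 6 times, with overlap at ZT0 and ZT4, a count whose share over all genes was not taken.

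Slc14a2 was the 1 measured gene with a called rhythm in both genotypes, which 0.879% of all genes had. The amplitude was 0.28 ± 0.04 in KO kidneys with a peak at ZT20.0 (SE 0.59 h, adjusted p = 0.00431 by limma) and 0.22 ± 0.04 in WT kidneys with a peak at ZT21.9 (SE 0.70 h, adjusted p = 0.0102). Fitted peak over trough was a fold of 1.48 in KO and 1.36 in WT kidneys. The KO peak time minus the WT peak time was -1.92 h with an SE of 0.92 h, and the difference between the waves was 0.14 ± 0.06 with an adjusted p of 0.721. The mean over the cycle was higher in KO kidneys by 0.18 ± 0.04 (95% interval 0.10 to 0.27), a fold of 1.14 with an adjusted p of 0.00934.

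Some of these Slc14a2 calls were lost when arrays were left out. Without both KO pools at ZT20 the mean difference was 0.14 with an adjusted p of 0.094, and the KO amplitude was 0.21 with an adjusted p of 0.282. Without the single WT pool at ZT8 the WT rhythm had an amplitude of 0.20 and an adjusted p of 0.0521. At ZT20 the means were 8.09 in KO and 7.70 in WT kidneys, a difference of 0.39 with an adjusted p of 0.0757.

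Slc14a1 encodes UT-B, the urea transporter of red cells and of the descending vasa recta. It ranged between 7.03 and 7.63 in KO pools with a median of 7.35, and between 6.86 and 7.41 in WT pools with a median of 7.18. The ranges overlapped widely, and the pools of WT at ZT20 alone were 0.55 apart. The difference of 0.21 ± 0.07 (SE, 95% interval 0.06 to 0.35) had an unadjusted p of 0.00794 and an adjusted p of 0.076 by limma. The amplitude was 0.18 ± 0.07 in KO with a fitted peak at ZT17.2 and 0.02 ± 0.07 in WT kidneys, with adjusted p-values of 0.446 and 0.968. The mean difference was called in 3 of the 22 fits without 1 array, those without pool 2 of WT at ZT4 (adjusted p = 0.026), pool 1 of WT at ZT12 (0.0431) or pool 1 of WT at ZT20 (0.0389).

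**Figure D4:**
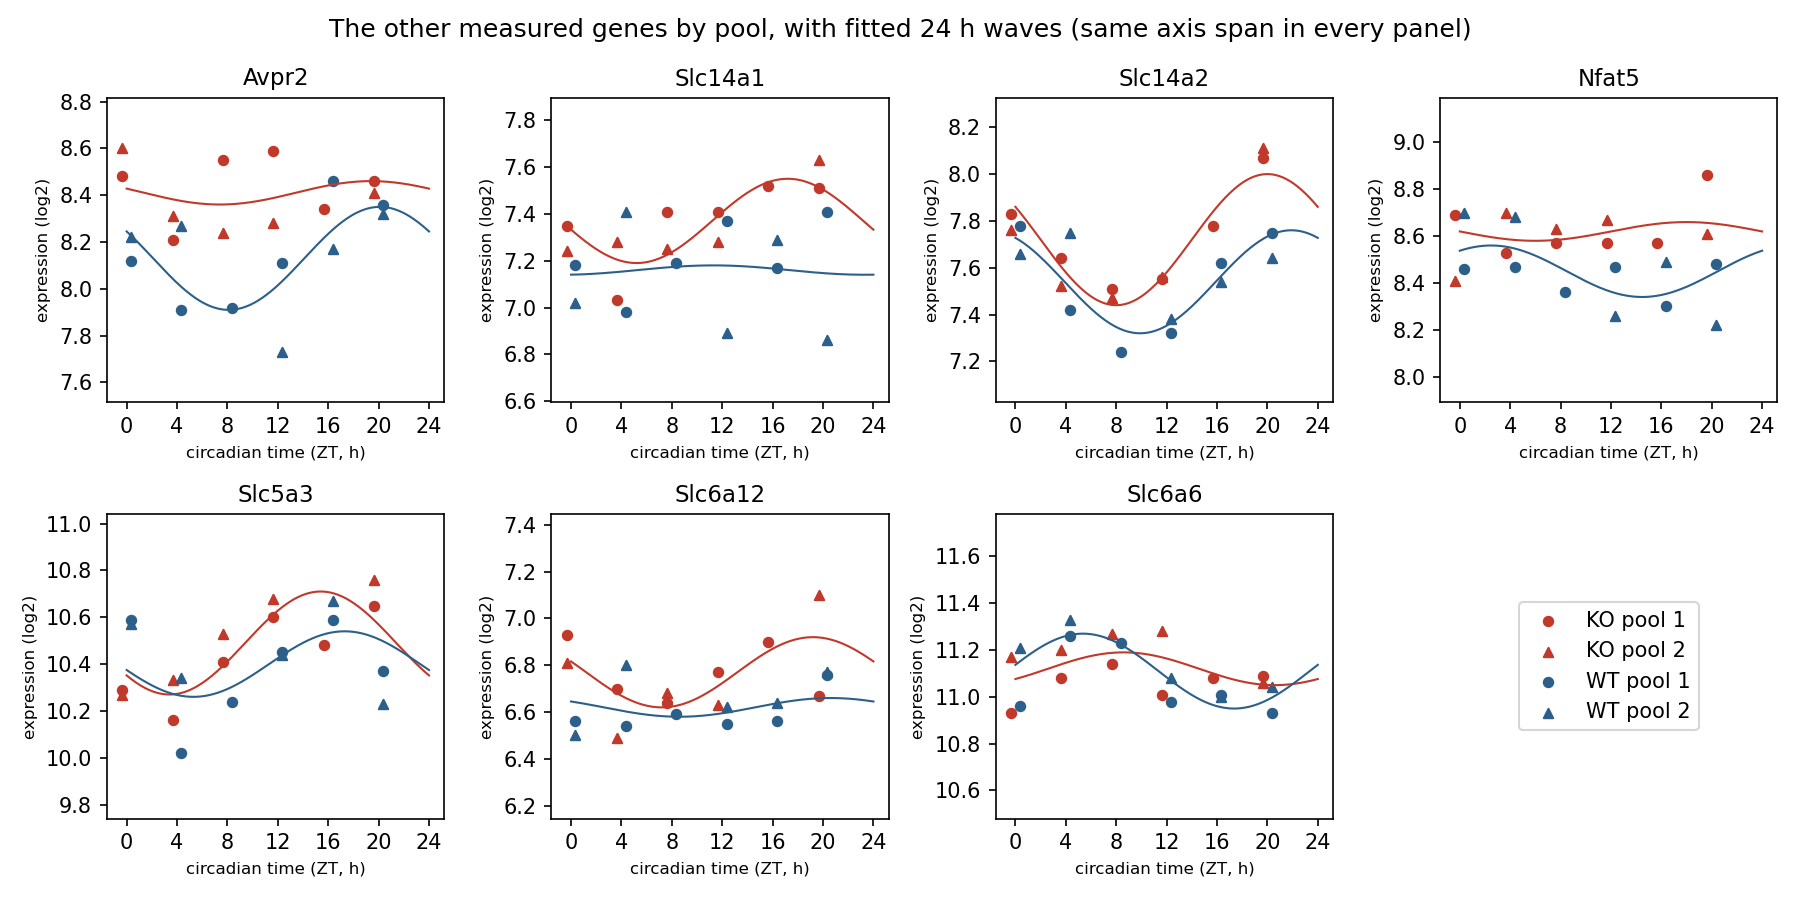
Expression (log2) by circadian time of the 7 other measured genes in KO (red) and WT (blue) pools, with fitted 24 h waves, circles for pool 1 and triangles for pool 2; genotypes are drawn slightly apart at each time. The axes span the same log2 range, and Slc14a2 shows a wave in both genotypes, with its highest KO pools at ZT20.

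Nfat5, the transcription factor activated by hypertonic stress, showed no called rhythm and a mean difference at the edge of the threshold. In KO kidneys the pools lay between 8.41 and 8.86 with a median of 8.61. In WT kidneys they lay between 8.22 and 8.70 with a median of 8.47. The KO pools lay above the WT pools at 4 of 6 times, from ZT8 to ZT20, and the genotypes overlapped at ZT0 and ZT4. The share of all genes with such a count was not taken, so the count lends no weight to the mean difference. The difference was 0.18 ± 0.05 (SE, 95% interval 0.06 to 0.29), a fold of 1.13 with an adjusted p of 0.0511 by limma. It was called in 5 of the 22 fits without 1 array, with adjusted p-values between 0.0194 and 0.113 over the 22. It was called in 7 of 20 other alternatives, with adjusted p-values of 0.0379 at the 50th percentile filter, 0.0377 with array medians subtracted and 0.0126 with array weights among them. Without the ZT20 pools of both genotypes it was 0.11, with an adjusted p of 0.4. The amplitude was 0.04 ± 0.06 in KO and 0.11 ± 0.05 in WT kidneys, with adjusted p-values of 0.962 and 0.349.

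None of the osmolyte transporter genes, targets of Nfat5, was called in its mean or rhythm in either genotype in the fit of all arrays. Slc5a3 encodes the sodium/myo-inositol cotransporter. Its KO pools read 10.29 and 10.27 at ZT0, 10.16 and 10.33 at ZT4, then 10.41 and 10.53 at ZT8, 10.60 and 10.68 at ZT12, next 10.48 at ZT16, and finally 10.65 and 10.76 at ZT20. Its WT pools read 10.59 and 10.57 at ZT0, 10.02 and 10.34 at ZT4, then 10.24 at ZT8, 10.45 and 10.44 at ZT12, next 10.59 and 10.67 at ZT16, and finally 10.37 and 10.23 at ZT20. The KO pools lay above the WT pools at ZT8, ZT12 and ZT20 and below them at ZT0 and ZT16. The comparison at ZT8 rests on a single WT pool and that at ZT16 on a single KO pool. The share of all genes with such a pattern was not taken. No test called a change of the Slc5a3 difference with time, so a crossing of the genotypes was not shown.

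The mean of Slc5a3 differed by 0.09 ± 0.06 (SE, 95% interval -0.04 to 0.22, adjusted p = 0.406 by limma). Its difference was -0.30 at ZT0 (unadjusted p = 0.0124, adjusted p = 0.96) and 0.41 at ZT20 (unadjusted p = 0.00144, adjusted p = 0.0724). The test that the difference varied with time had an unadjusted p of 0.00384 and an adjusted p of 0.807. The fitted amplitude was 0.22 ± 0.07 in KO, with a peak at ZT15.4 and an adjusted p of 0.218, and 0.14 ± 0.07 in WT kidneys, with a peak at ZT17.3 and an adjusted p of 0.344. Without the ZT20 pools of both genotypes the WT amplitude was 0.29 and was called (adjusted p = 0.0303). Slc5a3 overlaps Mrps6 in RefSeq, and the position of its probes in that overlap was likewise not known.

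Slc6a12, the betaine transporter, ranged between 6.49 and 7.10 in KO pools (median 6.70) and between 6.50 and 6.80 in WT pools (median 6.59). KO pools lay above WT pools at 4 of 6 times, a count whose share over all genes was not taken. The pools of KO at ZT20 were 0.43 apart. The difference was 0.14 ± 0.05 (SE, 95% interval 0.03 to 0.25) with an unadjusted p of 0.0126 and an adjusted p of 0.0996 by limma. It was called with array medians subtracted (adjusted p = 0.0348) and with array weights (0.0482). It was also called in 2 of the 22 fits without 1 array, with differences of 0.12 to 0.18 over the 22. The amplitude was 0.15 ± 0.05 in KO (adjusted p = 0.307) and 0.04 ± 0.06 in WT kidneys (adjusted p = 0.885).

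Slc6a6, the taurine transporter, ranged between 10.93 and 11.28 in KO pools and between 10.93 and 11.33 in WT pools, nearly the same span. Its mean difference was 0.01 ± 0.04 (SE), and the 95% interval of -0.08 to 0.10 bounds the change in either direction. In WT kidneys the highest time mean was 11.30 at ZT4, and the fitted wave had an amplitude of 0.16 ± 0.04 with a peak at ZT5.36 (SE 1.0 h, unadjusted p = 0.00651, adjusted p = 0.0819 by limma). In KO kidneys the amplitude was 0.07 ± 0.04 with an adjusted p of 0.728. The WT peak lay in the subjective day, whereas Avpr1a and Slc14a2 peaked late in the subjective night in WT kidneys.

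**Figure D5:**
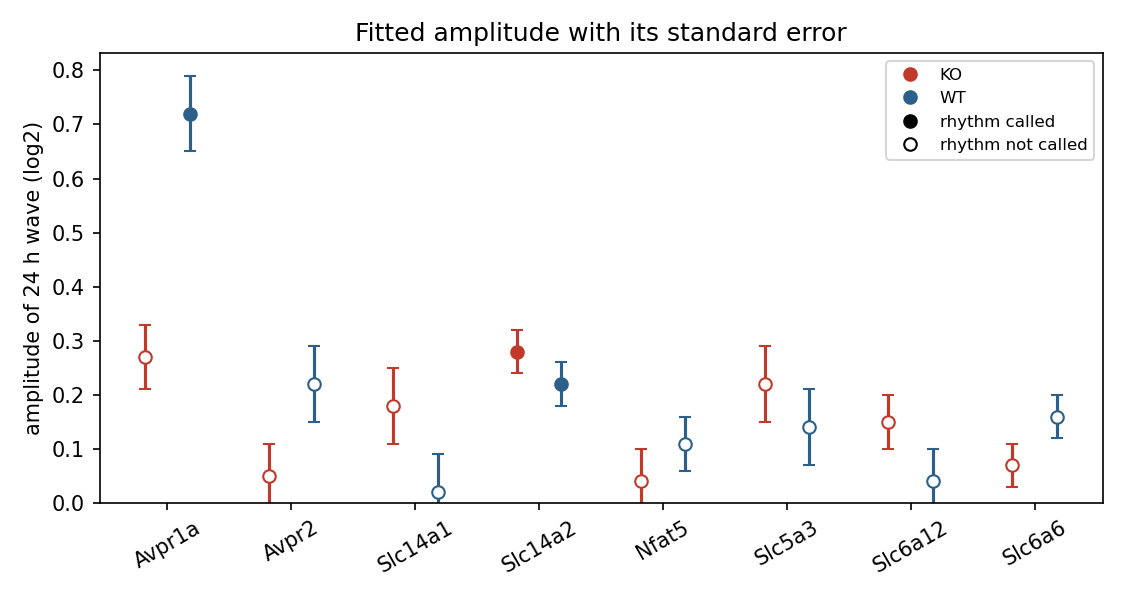
Amplitude (log2) of the fitted 24 h wave in KO and WT kidneys for the 8 measured genes, with standard errors cut off at 0; filled points are rhythms called by limma. Avpr1a has 0.27 in KO and 0.72 in WT kidneys, and Slc14a2 is called in both genotypes.

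Across the 8 genes the amplitude had a median of 0.167 in KO and 0.149 in WT kidneys, against 0.0687 and 0.0889 over all genes. At an unadjusted p under 0.05, 4 of the 8 had a rhythm in KO kidneys (Avpr1a, Slc14a2, Slc5a3 and Slc6a12), where 12.7% of all genes passed, and 4 in WT kidneys (Avpr1a, Avpr2, Slc14a2 and Slc6a6), where 21.1% passed. The amplitude was smaller in KO kidneys for Avpr1a, Avpr2, Nfat5 and Slc6a6 and larger for the 4 others, and no difference between waves was called.

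Most other genes of the same pathways were not called in their mean. Among all genes 4.45% were called higher and 3.45% lower in KO kidneys, and 1.89% had a called rhythm in KO and 5.16% in WT kidneys. Of 35 further genes of vasopressin signalling, 3 were higher in KO kidneys, 0 were lower and 32 were not called, with a median difference of 0.01. The count of 3 ran between 2 and 6 in fits without 1 array, reaching 5 without pool 2 of WT at ZT4 or of KO at ZT0 and 6 without pool 1 of KO at ZT12, and between 0 and 7 over the other alternatives. The 3 were Itpr2, an inositol trisphosphate receptor that releases calcium (0.23 ± 0.04, adjusted p = 0.000487 by limma), the kinase subunit Prkar1a (0.13 ± 0.04, 0.0216) and the phosphodiesterase Pde1a (0.16 ± 0.04, 0.0136). Over 20 alternatives the call was lost in 1 for Itpr2, 10 for Prkar1a and 8 for Pde1a. Aqp2, the water channel that the V2 receptor moves to the cell surface, was singled out after its value was seen and averaged 10.45 in KO and 10.55 in WT kidneys, a difference of -0.10 ± 0.05 with an adjusted p of 0.194. A rhythm was called for 0 of the 35 in KO and for 4 in WT kidneys, Plcb3 (peak ZT6.93), Pde1a (ZT6.04), Akap7 (ZT7.70) and Arrb1 (ZT3.49). The WT count ran between 0 and 5 in fits without 1 array, falling to 0 without pool 1 of WT at ZT20, and moved by over 1.5 times in 14 of 21 other alternatives, where Akap7 and Arrb1 each lost their call in 15.

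Of 6 further genes of urea handling, 3 were higher in KO kidneys and 0 were lower, against 4.45% and 3.45% of all genes. The median difference over the 6 was 0.09. Arg2, the mitochondrial arginase that produces urea, averaged 7.11 in KO and 6.09 in WT kidneys, a difference of 1.02 ± 0.11 (adjusted p = 5.67e-06 by limma). The ammonia transporter genes Rhbg and Rhcg differed by 0.22 ± 0.03 (adjusted p = 0.000242) and 0.13 ± 0.04 (0.0292). The Rhcg call in mean was lost in 11 of 20 alternatives and in 7 of the 22 fits without 1 array. For Rhbg it was lost in 1 and 0 of these. Rhythms were called for Rhbg (peak ZT20.9) and Asl (ZT6.59) in KO kidneys and for Asl (ZT9.34), which makes arginine, in WT kidneys. Among all genes 1.89% had a called rhythm in KO and 5.16% in WT kidneys. In KO kidneys the Rhbg call was lost in 15 and the Asl call in 12 of 21 alternatives, and in 6 and 5 of the 22 fits without 1 array.

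Over 23 further genes of the osmotic response the median difference was 0.04. Of these, 2 were higher in KO kidneys and 0 were lower, against 4.45% and 3.45% of all genes. The count ran between 2 and 4 in fits without 1 array, with 4 without pool 2 of WT at ZT16, and between 0 and 4 over the other alternatives. The 2 were the glucose transporter gene Slc2a1 (0.21 ± 0.05, adjusted p = 0.00918 by limma) and the syndecan Sdc4 (0.14 ± 0.03, 0.0142). Each lost its call in 7 of 20 alternatives. A rhythm was called for 0 of the 23 in KO and 5 in WT kidneys, where 1.89% and 5.16% of all genes were called. In WT kidneys the chaperone gene Hspa4l peaked at ZT19.8 with an amplitude of 0.29, the small heat shock gene Hspb1 at ZT18.4 with 0.28, the kinase gene Sgk1 at ZT17.5 with 0.43, and Atm at ZT6.08 with 0.28. The fifth, Mapk14, peaked at ZT13.5 with 0.14 and is named in addition to the rule for named genes.

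Of 17 genes of osmolyte metabolism, a list of enzymes and transporters, 2 were higher and 2 lower in KO kidneys, against 4.45% and 3.45% of all genes. Bhmt, which uses betaine to methylate homocysteine, differed by 0.43 ± 0.07 (adjusted p = 0.000829 by limma) and the inositol transporter gene Slc5a11 by 0.20 ± 0.03 (0.00034). Csad, an enzyme of taurine synthesis, fell by 0.24 ± 0.04 (adjusted p = 0.00114) and Chdh, which makes betaine from choline, fell by 0.14 ± 0.04 (0.0197). Over 20 alternatives the call in mean was lost in 9 for Chdh, 2 for Slc5a11 and 1 each for Bhmt and Csad. A rhythm was called for 0 of the 17 in KO and 1 in WT kidneys, where 1.89% and 5.16% of all genes were called. That gene was Bhmt, with an amplitude of 0.33 and a peak at ZT2.22 (adjusted p = 0.0224 by limma). Its call was lost in 8 of 21 alternatives, and the amplitude was 0.26 to 0.39 in fits without 1 array.

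The genes whose 12 group means followed Avpr1a most closely were Tubb2b (r = 0.973), Tfpi2 (0.972), Jpt2 (0.971), Trim2 (0.964) and L3hypdh (0.961). Within a genotype, over 6 times, their correlations with Avpr1a ran between 0.782 and 0.986 in KO and between 0.952 and 0.968 in WT kidneys. These values share the same arrays and are a description. Their being higher in KO kidneys, by 0.22 to 0.46, follows from the choice, since the 12 means hold both genotypes.

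Markers of some cell types that hold these genes also differed between genotypes. The counts of higher and lower markers are of means over the cycle, where 4.45% of all genes were called higher and 3.45% lower. Of 10 intercalated cell markers, 4 were higher in KO kidneys (Atp6v1b1, Slc4a1, Slc4a9 and Rhcg) and 0 were lower, and the mean of the list ranged between 8.79 and 9.05 in KO and between 8.67 and 8.87 in WT arrays. Of 9 principal cell markers, 3 were higher and 0 lower, with list means of 9.50 to 9.61 in KO and 9.35 to 9.55 in WT arrays. Of 7 inner medulla and thin limb markers, which include Slc14a2, 2 were higher and 0 lower, with 8.11 to 8.32 in KO and 7.92 to 8.37 in WT arrays. Of 9 endothelial markers, which include Slc14a1, 3 were higher and 0 lower, with 8.86 to 9.15 in KO and 8.76 to 9.03 in WT arrays.

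In the distal convoluted tubule list 6 of 7 were higher and 0 lower, against the same 4.45% and 3.45% of all genes. The ranges of its list mean, 9.42 to 9.61 in KO and 9.06 to 9.40 in WT arrays, did not overlap. Of 4 liver markers, measured because liver also expresses Avpr1a, Alb was lower in KO kidneys and Ttr and Fgb were higher, and the list mean was 7.30 to 7.58 in KO and 7.14 to 7.61 in WT arrays. Of 5 smooth muscle markers 0 were called in either direction, with list means of 7.53 to 8.14 in KO and 7.56 to 7.83 in WT arrays. Alas2, the 1 blood marker tested, was not called in its mean and ranged between 5.82 and 7.54 in KO and between 6.32 and 7.46 in WT arrays. Its KO rhythm was called, with an amplitude of 0.67 and a peak at ZT4.25 (adjusted p = 0.011 by limma). The WT rhythm of Alas2 was not called (0.18, adjusted p = 0.502). Its wave difference of 0.83 had an unadjusted p of 0.00017 and an adjusted p of 0.157. Of the thick ascending limb markers 1 was higher and 1, Umod, was lower of 7, and of the proximal tubule markers 2 were higher and 1 lower of 8. In their mean, 0 of 6 stromal, 6 immune, 2 adrenal and 4 adipose markers were called. Besides Slc14a2 and Alas2, marker rhythms were called for Slc4a1 in both genotypes, Cldn10 and Pdgfrb in WT and Slc22a6 in KO kidneys. Among all genes 1.89% had a called rhythm in KO and 5.16% in WT kidneys. Log2 values of RMA have no true 0, so no marker can be given as absent. The part of these marker differences in the results above was not tested.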

How the data were processed

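The deposited matrix holds log2 values for each probe set, which the authors obtained by RMA according to the submitters' processing notes. RMA subtracts background, quantile-normalizes the arrays and combines a set's probes, so it removes shifts of most genes and compresses dim values. Its version and the genome build are not given in the sources. Of 35556 probe sets, 21789 had 1 gene symbol in the platform annotation, 1621 several and 12146 were not listed. Probe sets with a mean under the 30th percentile (4.666 log2) were left out, and the brightest stood for each gene, which left 15589 genes.

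All 22 arrays were fitted with limma 3.58.1 in R 4.3.3, with a mean, cosine and sine of 24 h per genotype (16 residual degrees of freedom). The fit gave the mean difference, each rhythm and the wave difference. Differences at each time came from 12 group means (10 residual degrees of freedom). Adjustment was by Benjamini-Hochberg over all genes. The scripts were tested on simulated data. The labels do not say whether pools came from separate litters or days, so the spread between pools may be technical. P-values at single times rest on that spread, moderated by limma over all genes. In the fits of a 24 h wave, the spread also holds departures of the time means from the wave. The number of arrays limits the precision. Genes named beyond the 9 are, per pathway list and test, up to 4 called genes with the smallest adjusted p, called marker genes and the 5 genes most correlated with Avpr1a over group means. The members and lists were chosen with earlier results of these data known. Alternatives covered the filter, normalization, spread, array weights, a replicate block, each array, each time, and each pool number.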

Additional observations from a re-analysis of the deposited data

Results flagged for a closer look

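For 2 of the measured genes the KO pools lay wholly above the WT pools at some times and wholly below them at others, counted over times with 2 pools of each genotype. How many of all genes did so was not counted, so this flag does not set the 2 genes apart. Slc5a3, the myo-inositol transporter gene, lay above at 2 such times (ZT12 and ZT20) and below at 1 (ZT0). The test that its difference varied with time, an F-test in limma over group means, had an unadjusted p of 0.00384 and an adjusted p of 0.807. Slc6a6, the taurine transporter gene, lay above at 1 such time and below at 1, and the same test had an unadjusted p of 0.591 and an adjusted p of 1. Neither difference between times passed the threshold.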

How the results depend on the processing

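The Avpr1a mean difference was called in 19 of 20 alternatives besides the fits without 1 array and the Avpr1a rhythm of WT kidneys in 20 of 21. The exception was pool 2 arrays alone, with 0.62 (adjusted p = 0.117) and an amplitude of 0.87 (0.0529). There 0 of the 8 genes were called in mean or either rhythm, and 1 of all genes was called in mean, against 1231 in all arrays. The KO rhythm of Avpr1a was called with the filter at the 50th percentile (0.27), a trended robust spread (0.27) and array weights (0.28), making 2 genes with a KO rhythm in each. Of the 8 genes, 0 had a called KO rhythm without the ZT20 pools of KO or of both genotypes, with pool 1 alone, or with a free level at each time. Of the 8, genes called in mean numbered 5 with array medians subtracted, 6 with array weights, and 1 without the ZT20 or the ZT12 pools of both genotypes. Genes with a WT rhythm numbered 1 with pool 1 alone, a free level at each time, WT arrays alone, or without the ZT0, ZT8 or ZT12 pools of both genotypes. Differences called at single times numbered 3 with the 50th percentile filter, the trended robust spread, and without the 3 arrays between the genotypes. In that last setting, whose arrays were picked by genotype separation, the Avpr1a wave difference was 0.57 and 1 gene was called for it. The mean of Slc6a6 turned negative with repeated quantile normalization (-0.0066), without KO at ZT20 (-0.0022), without ZT20 (-0.0023) or ZT12 (-0.0048) of both genotypes, with pool 1 alone (-0.006), without the 3 arrays (-0.011) and in 4 fits without 1 array (-0.0084 to 0.032 over 22). That of Slc5a3 was -0.042 without ZT20 of both genotypes. The causes were not tested. Settings that leave out a time other than ZT20 for both genotypes, or the 3 arrays, were chosen after seeing the data.

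Over the 22 fits without 1 array, the Avpr1a mean difference was 0.71 to 0.78, its WT amplitude 0.64 to 0.77, its KO amplitude 0.23 to 0.33 and its wave difference 0.42 to 0.54. Genes called numbered 3 to 6 in mean, 1 to 3 in WT rhythm, 1 to 2 in KO rhythm and 0 to 0 in wave difference, and differences at single times numbered 0 to 4. The count of 6 came without pool 2 of WT at ZT4. The same-numbered pools correlated in their deviations by 0.337 at ZT0, 0.399 at ZT4, -0.036 at ZT12 and 0.180 at ZT20, 3 of 4 above 0.1, so the rule that every pair exceed 0.1 was not met. Pool 1 arrays of 9 of 10 groups correlated positively on average with those of other groups (29 of 45 pairs above 0), and whether a number marks a shared effect is undecided. With pool number as a replicate block, the Slc6a6 rhythm of WT kidneys was called (0.17, adjusted p = 0.0177), the Avpr1a difference was 0.75, the calls of the other measured genes in mean and rhythm did not change, and 1101 genes in all had a WT rhythm, against 804. Over the alternatives, counts over all genes ran from 1 to 2372 in mean, 6 to 1101 in WT rhythm, 0 to 610 in KO rhythm and 0 to 17 in wave difference.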
